A study of Mus musculus with 8 samples.

Results

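PTH more than doubled the transcript of Gja1, the connexin-43 gene, in calvarial osteoblasts, while the transcripts of Gjc1 and Panx3 fell to 0.5 and 0.451 times their vehicle level. The genes described here are 10 that encode proteins of cell-to-cell contact, chosen by symbol from the 47706 genes of the count table: the connexins Gja1, Gjb2 and Gjc1, the pannexins Panx1 and Panx3, and the cadherins Cdh2, Cdh4, Cdh11, Cdh13 and Cdh15. Each symbol had 1 row in the table and all 10 genes passed the filter on low counts. Cells were primary osteoblasts of the mouse calvaria (the skullcap), isolated from newborns, kept for 7 days in differentiation medium and then exposed for 24 hours to PTH (parathyroid hormone 1–34) in 4 samples or to vehicle in 4 samples. The labels call the medium adipogenic and the study's methods call it osteogenic, and sample titles carry the prefix Con, which the labels do not explain. The methods add a short serum starvation before treatment. They name PBS as the vehicle of the matrix deposition cultures and name none for the sequenced cultures. The labels give no genotype or strain. No label says whether the 4 samples of a treatment came from separate litters or preparations, so the p-values measure the spread between these samples, which may be technical.

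Connexins form hexameric hemichannels that dock between neighboring cells and make gap junctions, through which ions and small second messengers such as cyclic AMP pass. Connexin-43 is the best known gap junction protein of osteoblasts and osteocytes. Pannexins are related in fold but act mainly as channels of the single plasma membrane, with release of ATP as their best known function. Classical cadherins bind the same cadherin on the next cell in the presence of calcium and are tied to actin inside the cell by catenins, and osteoblasts are known for N-cadherin and cadherin-11.

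Total counts per sample ranged from 33605610 to 56090654, both in the PTH group. The treatment labels were checked with Tnfsf11, which encodes RANKL and rose from 1.42 ± 0.365 to 128 ± 20 CPM (counts scaled to the TMM-normalized library size, mean ± SD, n = 4). Pth1r, the gene of the PTH receptor, fell by 0.70 on the log2 scale (edgeR, adjusted p = 4.43e-04). All 10 tested genes of an 11-gene PTH response list differed between treatments (edgeR, adjusted p under 0.05), against 45.8% of all tested genes. That list was drawn up with earlier results known, and its untested gene, Sost, had 0 counts in every sample. The 9 osteoblast markers were all above 1 CPM on average and summed to 92700 to 105000 CPM with vehicle and 86700 to 125000 CPM with PTH, a sum carried by Col1a1, Col1a2 and Sparc. Of the 9, 7 did not pass the test described next and 2 fell, both of them genes of transcription factors needed for osteoblast formation. Sp7 went from 103 ± 29.6 to 30.1 ± 3.26 CPM (log2 fold change -1.78, edgeR adjusted p = 4.45e-06) and Runx2 from 116 ± 5.70 to 92.3 ± 8.97 CPM (log2 fold change -0.33, edgeR adjusted p = 0.00362), in the same direction as Gjc1, Panx3, Cdh2 and Cdh11, and their part in those falls was not tested. Markers of adipocytes summed to 34.8 to 55.5 CPM over the 8 samples and those of endothelium to 5.99 to 7.76 CPM. Those of glia summed to 16.0 to 22.2 CPM and those of epithelium to 0.470 to 1.89 CPM, with Krt14 at 0. Among 7 tested adipocyte markers only Pparg passed, with a fall from 16.0 ± 1.42 to 5.67 ± 0.573 CPM (log2 fold change -1.5, edgeR adjusted p = 3.66e-07). Among 5 tested endothelial markers Kdr rose (log2 fold change 1.51, edgeR adjusted p = 0.0107), Tek fell (-0.49, adjusted p = 0.0215) and 3 did not pass. No tested glial or epithelial marker passed. In bulk RNA, fewer cells of a type and less RNA per cell cannot be told apart.

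The treatments were tested against each other with edgeR (quasi-likelihood F-test) over 16736 genes, with an adjusted p (Benjamini-Hochberg) under 0.05 taken as a change. Of the 10 genes, 2 rose (Gja1 and Panx1), 4 fell (Gjc1, Panx3, Cdh2 and Cdh11) and 4 did not pass (Gjb2, Cdh4, Cdh13 and Cdh15). Over all tested genes, 45.8% passed that threshold, 23.3% with a rise and 22.5% with a fall, so 6 of 10 is a share not far from the background. The samples of the treatments did not overlap in 5 of the 10 genes, 2 with PTH above and 3 with PTH below, against 43% of all tested genes, 21.2% above and 21.8% below. The median log2 fold change was 0.05 over the 10 genes and -0.0008 over all tested genes. Among the connexins and pannexins 4 of 5 changed, and among the cadherins 2 of 5 did.

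Gja1 (chromosome 10, 56377330 to 56402513, plus strand, GENCODE M21 on GRCm38) encodes connexin-43. Its level was 360, 357, 350 and 307 CPM in vehicle samples 1 to 4. With PTH it was measured at 964, 590, 702 and 767 CPM in samples 1 to 4. Every PTH sample lay above every vehicle sample, and the PTH samples were spread more widely (SD 157 against 24.5 CPM). The log2 fold change was 1.14 with a standard error of 0.128, or 2.20-fold (edgeR, adjusted p = 1.80e-05). By rank of mean CPM, Gja1 stood 181st of the tested genes, and 10.3% of these had a larger change in either direction. Within the PTH group its CPM followed the order of total counts, lowest in sample 2 (33605610 counts) and highest in sample 1 (56090654 counts), and the part of depth in this order was not tested. Without each sample in turn the log2 fold change was 1.0 to 1.25 and the adjusted p was at most 1.66e-04.

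**Figure D1:**
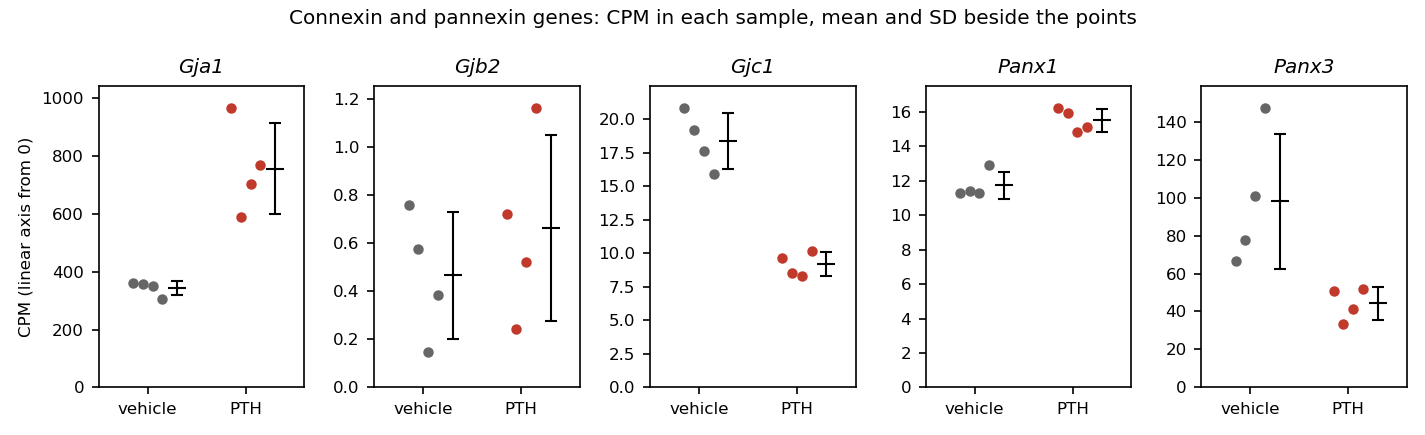
CPM (linear axes from 0) of the 3 connexin and 2 pannexin genes in 4 vehicle (grey) and 4 PTH (red) samples, 1 point a sample, with the mean and SD drawn in black beside the points. Gja1 and Panx1 were higher in every PTH sample, Gjc1 and Panx3 were lower in every PTH sample, and the Gjb2 samples overlapped.

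The window of 250 bases before the RefSeq start (GRCm38.p6) is shown for Gja1 and Panx1, the 2 genes that rose, because cyclic AMP, which PTH raises, is known to act through CREB and AP-1 proteins at short motifs near gene starts. RefSeq promoter sequences used here matched 4 of the 10 genes (Gja1, Gjb2, Panx1 and Cdh15). None of these fell, so windows of genes that rose and genes that fell could not be compared. Capitals mark matches on either strand to the short CRE site TGACG, the AP-1 site TGAGTCA and the RUNX site TGTGGT. The complete CRE, TGACGTCA, holds the short site within it and was also searched for, without a match in the windows of these 4 genes.
Gja1, chr10:56377050-56377299, plus strand: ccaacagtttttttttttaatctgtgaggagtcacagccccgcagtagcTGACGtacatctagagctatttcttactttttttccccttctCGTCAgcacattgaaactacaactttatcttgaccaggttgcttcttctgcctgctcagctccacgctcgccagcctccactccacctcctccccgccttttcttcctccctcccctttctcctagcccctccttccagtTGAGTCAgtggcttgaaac
Panx1, chr9:15045479-15045728, minus strand: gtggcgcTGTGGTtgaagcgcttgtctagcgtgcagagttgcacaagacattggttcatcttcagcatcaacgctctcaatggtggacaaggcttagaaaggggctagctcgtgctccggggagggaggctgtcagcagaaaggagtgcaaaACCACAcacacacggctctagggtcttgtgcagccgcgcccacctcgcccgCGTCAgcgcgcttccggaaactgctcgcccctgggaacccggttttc
In the Gja1 window the short CRE site began 201 bases before the start and, on the other strand, 159 bases before it, and the AP-1 site began 19 bases before it. The Panx1 window held 1 short CRE site, which began 47 bases before the start, and a RUNX site on each strand. Gjb2, which did not pass the test, also had a short CRE site. Over 32851 RefSeq windows of the same length, 17.8% held a short CRE site, 1.55% a complete CRE, 4.46% an AP-1 site and 14% a RUNX site. These letters describe the windows and show no binding.

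Gjc1 (chromosome 11, 102799579 to 102819700, minus strand) encodes connexin-45, which forms channels of lower conductance and can mix with connexin-43. Vehicle samples 1 to 4 held 20.8, 19.2, 17.6 and 15.9 CPM. In PTH samples 1 to 4 the values were 9.64, 8.55, 8.33 and 10.2 CPM. All PTH samples lay below all vehicle samples, and the gene fell by 1.0 on the log2 scale (standard error 0.108, edgeR adjusted p = 1.27e-05). Without each sample in turn the log2 fold change lay between -1.07 and -0.94. Within a sample, the log2 ratio of Gjc1 to Gja1 was -4.22 ± 0.0857 with vehicle and -6.33 ± 0.230 with PTH, a difference of -2.11 that had the same sign for every pair of a PTH and a vehicle sample. The exact two-sided permutation p was 0.0286, the smallest that 4 samples against 4 allow, and 0.0381 after adjustment over 4 ratios. Each gene alone already separated the treatments, in opposite directions, so the ratio had to separate and this p was fixed beforehand. The ratio gives the size of the joint difference and adds no evidence to the single-gene tests.

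Gjb2 (chromosome 14, 57098600 to 57104702, minus strand) encodes connexin-26, a protein of epithelia and the inner ear. Vehicle samples 1 to 4 held 34, 25, 7 and 19 counts, and PTH samples 1 to 4 held 37, 8, 20 and 49 counts. The samples overlapped throughout. The log2 fold change was 0.53 with a 95% interval of -0.67 to 1.72 (edgeR, adjusted p = 0.465). Falls and rises within that interval are not excluded at this depth.

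Panx1 (chromosome 9, 15002128 to 15045478, minus strand) encodes the widely expressed pannexin-1. The gene stood at 11.3, 11.4, 11.3 and 12.9 CPM in vehicle samples 1 to 4. PTH samples 1 to 4 held 16.2, 15.9, 14.8 and 15.1 CPM. The treatments did not overlap, and the rise was 1.32-fold (log2 fold change 0.40, standard error 0.0854, edgeR adjusted p = 0.00220). Its size was common, since 44.3% of the tested genes had a larger change.

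Panx3 (chromosome 9, 37659902 to 37669235, minus strand) encodes pannexin-3, known from osteoblasts, prehypertrophic chondrocytes and skin. Its values were 66.8, 77.7, 101 and 147 CPM in vehicle samples 1 to 4. In PTH samples 1 to 4 it was measured at 50.6, 33.2, 41.3 and 51.8 CPM. The highest PTH sample lay below the lowest vehicle sample, although the vehicle samples were spread over a range from 66.8 to 147 CPM. Panx3 fell by 1.15 on the log2 scale (standard error 0.219, edgeR adjusted p = 0.00105), and without each sample in turn the log2 fold change lay between -1.30 and -0.88. Osteocyte markers, a list of 5 of which 3 were under 1 CPM, Sost among them at 0, summed to 46.2 to 84.3 CPM with vehicle and 28.6 to 49.6 CPM with PTH. That sum was carried by Phex, which did not pass (edgeR, adjusted p = 0.128), and Dmp1, which fell (log2 fold change -1.12, edgeR adjusted p = 8.06e-04), while Fgf23 rose from 0 counts in every vehicle sample to 34 to 86 counts per PTH sample. Chondrocyte markers, 5 genes of which 1 was under 1 CPM, summed to 409 to 463 CPM with vehicle and 479 to 606 CPM with PTH, with Acan and Col2a1 higher and the other 2 tested not passing. The part of either cell type in the level of Panx3 was not tested.

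The pannexins moved in opposite directions. The log2 ratio of Panx3 to Panx1 was 2.99 ± 0.419 with vehicle and 1.49 ± 0.311 with PTH, a difference of -1.50 (exact permutation test, two-sided p = 0.0286, adjusted p = 0.0381). Panx3 to Gja1 differed by -2.22 between treatments, from -1.87 ± 0.600 to -4.09 ± 0.153 (exact permutation test, two-sided p = 0.0286, adjusted p = 0.0381). In these ratios no PTH sample reached a vehicle sample. That was fixed beforehand, because Panx3 was lower and Panx1 and Gja1 were higher in every PTH sample. Both p-values are therefore the smallest possible and add no evidence to the single-gene tests.

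**Figure D2:**
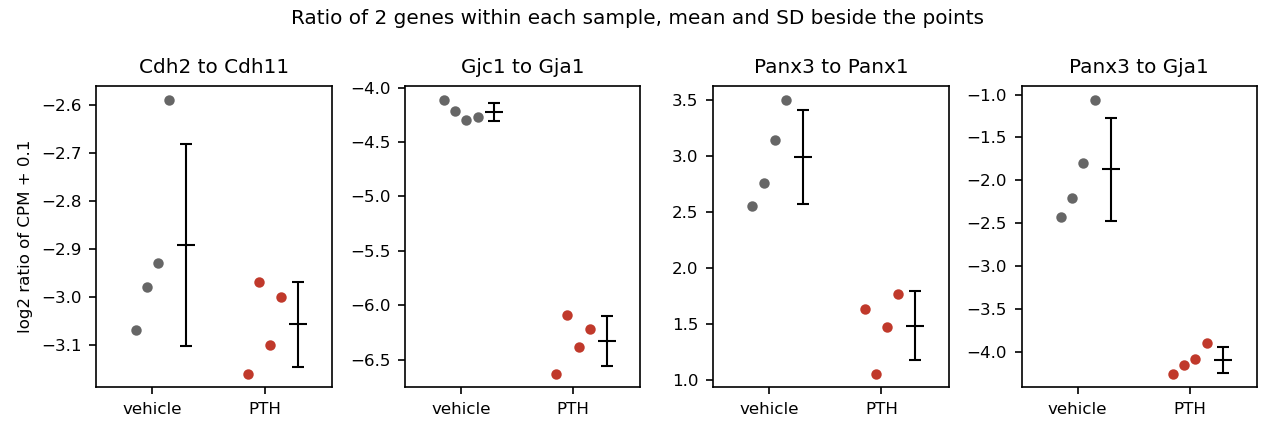
log2 ratio of 2 genes within each sample (CPM + 0.1), 1 point a sample with the mean and SD in black beside the points, vehicle grey and PTH red, and axes that do not start at 0. The Gjc1 to Gja1, Panx3 to Panx1 and Panx3 to Gja1 ratios were lower in every PTH sample, while those of Cdh2 to Cdh11 overlapped.

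Cdh11 (chromosome 8, 102632095 to 102785642, minus strand) encodes cadherin-11, once named osteoblast cadherin, and was the most abundant cadherin at rank 55 of all tested genes by mean CPM. It was measured at 1490, 1550, 1500 and 1270 CPM in vehicle samples 1 to 4. In PTH samples 1 to 4 it was measured at 1340, 935, 1150 and 1230 CPM. PTH sample 1 lay above vehicle sample 4, so the treatments overlapped. Cdh11 fell by 0.32 on the log2 scale, to 0.799 times the vehicle level (standard error 0.110, edgeR adjusted p = 0.0305), and the exact two-sided permutation p was 0.0571. The edgeR adjusted p rose above 0.05 without PTH sample 2 (log2 fold change -0.22, adjusted p = 0.0580), without PTH sample 3 (-0.32, adjusted p = 0.0757) and without vehicle sample 1, 2 or 3 (-0.31, -0.30 and -0.31, adjusted p = 0.0795, 0.0981 and 0.0764). Blocking on the replicate number gave a log2 fold change of -0.33 and an adjusted p of 0.0634, and an offset for transcript length gave -0.26 and 0.0757. Within the PTH group its CPM followed total counts in the same order as Gja1. Part of its transcript, up to 990 bases, is shared at 95% identity or more with 7 other genes, of which 6 are in the table with 7441 to 9606 counts in sum per sample, against 31077 to 71698 for Cdh11, so the division of reads among them is uncertain.

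Cdh2 (chromosome 18, 16588877 to 16809246, minus strand) encodes N-cadherin. Vehicle samples 1 to 4 stood at 177, 196, 196 and 212 CPM. PTH samples 1 to 4 held 149, 119, 134 and 154 CPM. No PTH sample reached the lowest vehicle sample. Cdh2 fell by 0.49 on the log2 scale (standard error 0.0873, edgeR adjusted p = 6.53e-04). Without each sample in turn the log2 fold change lay between -0.54 and -0.42. The fall of Cdh2 was not shown to differ from that of Cdh11: the log2 ratio of Cdh2 to Cdh11 was -2.89 ± 0.212 with vehicle and -3.06 ± 0.0910 with PTH, with overlap (difference -0.16, exact permutation test, two-sided p = 0.171).

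**Figure D3:**
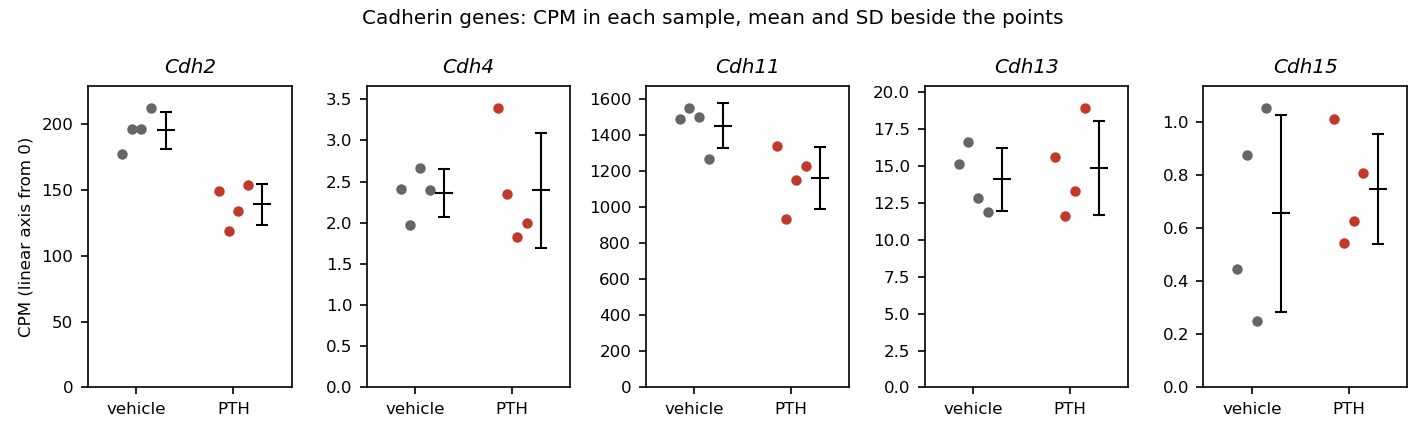
CPM (linear axes from 0) of the 5 cadherin genes in 4 vehicle (grey) and 4 PTH (red) samples, with the mean and SD in black beside the points. Cdh2 was lower in every PTH sample, Cdh11 was lower on average with 1 PTH sample above the lowest vehicle sample, and Cdh4, Cdh13 and Cdh15 overlapped.

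Cdh13, Cdh4 and Cdh15 did not pass the test. Cdh13 (chromosome 8, 118283733 to 119324921, plus strand) encodes T-cadherin, which lacks the cytoplasmic tail, is held by a lipid anchor and binds adiponectin. The vehicle samples held 15.1, 16.6, 12.8 and 11.9 CPM and the PTH samples 15.6, 11.6, 13.3 and 18.9 CPM. The log2 fold change, 0.08, had a 95% interval of -0.26 to 0.41 (edgeR, adjusted p = 0.713), the narrowest of these 3. Cdh4 (chromosome 2, 179442431 to 179899373, plus strand) encodes R-cadherin and was measured at 2.41, 1.97, 2.67 and 2.40 CPM with vehicle and 3.39, 2.35, 1.83 and 2.0 CPM with PTH. PTH sample 1 was the highest of the 8, and the interval of the log2 fold change was -0.48 to 0.53. Cdh15 (chromosome 8, 122847966 to 122867397, plus strand) encodes M-cadherin of muscle precursors and held 20, 38, 12 and 52 counts with vehicle and 52, 18, 24 and 34 counts with PTH. The interval of its log2 fold change was -0.78 to 1.18. Of 8 skeletal muscle markers 5 were under 1 CPM and Myf5 was at 0, and the list summed to 6.71 to 8.59 CPM with vehicle and 10.6 to 12.6 CPM with PTH, with Pax7 and Myh3 higher among 4 tested. Their part in the level of Cdh15 was not tested.

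Per kilobase of the longest GENCODE basic transcript, the vehicle levels were in the order Cdh11 (257 ± 21.9 CPM per kilobase), Gja1 (108 ± 7.71), Cdh2 (40.3 ± 2.9), Panx3 (38.8 ± 14.1), Gjc1 (7.94 ± 0.908), Cdh13 (3.72 ± 0.574), Panx1 (2.05 ± 0.141), Cdh4 (0.370 ± 0.0451), Cdh15 (0.201 ± 0.114) and Gjb2 (0.193 ± 0.109). Neighbors overlapped over their 4 samples for Cdh2 and Panx3, for Cdh4 and Cdh15 and for Cdh15 and Gjb2. With PTH, Gja1 stood first at 238 ± 49.2 CPM per kilobase and overlapped with Cdh11 at 206 ± 30. Below them came Cdh2 (28.7 ± 3.19), Panx3 (17.5 ± 3.43), Gjc1 (3.96 ± 0.377), which overlapped with Cdh13 (3.92 ± 0.836), and Panx1 (2.70 ± 0.115). Of the summed level per kilobase of the 5 connexin and pannexin genes, Gja1 made up 58.8% to 75% with vehicle and 89.6% to 91.7% with PTH. Panx3 made up 17.5% to 35.5% with vehicle and 6.05% to 7.61% with PTH. The cadherin mix differed less, with Cdh11 at 82.6% to 86.5% of the 5 genes' sum with vehicle and 85.4% to 86.9% with PTH. The length chosen bears on this order: with all exons merged, an alternative chosen after seeing the data, the level of Gja1 with PTH was 0.562 times that of Cdh11, against 1.15 times with the longest transcript.

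**Figure D4:**
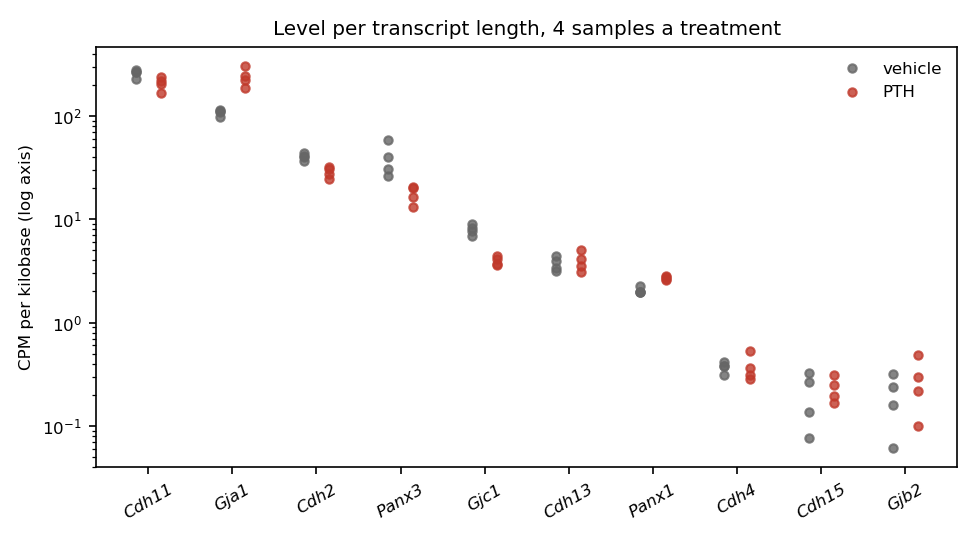
CPM per kilobase of the longest basic transcript (log axis) for the 10 genes in the order of their vehicle level, 1 point a sample, vehicle grey and PTH red. Cdh11 led with vehicle at 257 CPM per kilobase on average, and Gja1 rose into its range with PTH at 238.

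Of the 18 other connexin and pannexin genes, 12 had too few counts to be tested, 1 rose and 1 fell. Gja4, the connexin-37 gene of vascular endothelium, rose from 0 to 12 counts per vehicle sample to 57 to 87 counts per PTH sample (log2 fold change 3.83, standard error 0.581, edgeR adjusted p = 2.02e-04), with no overlap. Its PTH level was 1.87 ± 0.491 CPM. Of the 18 other cadherins 12 were tested. Cdh6, the K-cadherin gene of kidney and neural crest, rose without overlap, from 1.40 ± 0.400 CPM to 4.36 ± 0.171 (log2 fold change 1.64, standard error 0.216, edgeR adjusted p = 6.76e-05). Cdh20 fell from 21 to 46 counts per vehicle sample to 6 to 16 counts per PTH sample (log2 fold change -1.36, edgeR adjusted p = 0.0321), but this adjusted p rose above 0.05 without PTH sample 1, 2 or 4 or vehicle sample 1 or 3. The other 10 tested did not pass, among them the epithelial Cdh1 and the endothelial Cdh5, both under 1 CPM on average. In the wider superfamily (desmosomal cadherins, FAT, dachsous and CELSR proteins and protocadherins outside the gene clusters), 2 of 18 tested genes rose and 2 fell. Among those that passed, Fat2 rose most, from 7 to 15 counts per vehicle sample to 19 to 113 counts per PTH sample (log2 fold change 2.43, edgeR adjusted p = 0.00152). Dchs2, a partner of FAT proteins in planar polarity, fell most among them (log2 fold change -1.46, edgeR adjusted p = 1.31e-04). In each list of this paragraph the share that changed was below that of all tested genes. Of the latter 45.8% passed, 23.3% with a rise and 22.5% with a fall.

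Catenins and adherens junction partners changed in 15 of 20 tested genes, against 45.8% of all tested genes. Of these, 5 rose and 10 fell, against 23.3% and 22.5% of all tested genes, and the median log2 fold change of the list was -0.29. Among those that passed, Pkp1, the plakophilin-1 gene, rose most, from 0 to 5 counts per vehicle sample to 21 to 62 counts per PTH sample (log2 fold change 5.10, edgeR adjusted p = 3.00e-04). Pkp2 fell most, from a mean of 1.68 ± 0.462 CPM to one of 0.484 ± 0.148 (log2 fold change -1.77, adjusted p = 0.00124). Further genes are named after their values were seen, because they belong to the core of the junction or show the largest change in an abundant gene. Ctnnb1, which encodes β-catenin, was measured at 832 ± 41.6 CPM with vehicle and 806 ± 11.7 CPM with PTH (log2 fold change -0.05, 95% interval -0.19 to 0.10, adjusted p = 0.598). Ctnna1, an α-catenin gene, did not pass either, at 258 ± 7.51 CPM with vehicle and 242 ± 22.2 CPM with PTH (log2 fold change -0.09, edgeR adjusted p = 0.336). Ctnnd1, which encodes p120-catenin, the protein that holds cadherins at the membrane, fell from 433 ± 14.9 CPM to 269 ± 13.4 (log2 fold change -0.69, adjusted p = 3.82e-06). Its assembled locus also holds Tmx2. Vcl, the vinculin gene, fell as well (log2 fold change -0.58, adjusted p = 5.35e-04). Nectin1, which encodes a calcium-independent adhesion protein of adherens junctions, rose 11.3-fold, from 17.7 ± 1.98 CPM to 199 ± 35.1 (log2 fold change 3.50, adjusted p = 8.26e-10).

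Genes whose products bind connexin-43 or act in its traffic and turnover changed in 8 of 11 cases, 2 with a rise and 6 with a fall, against 45.8%, 23.3% and 22.5% of all tested genes. Those that fell numbered 5 under the replicate block and 4 under the length offset, and the median log2 fold change was -0.28. This list was drawn up with earlier results known, as were the others. Tjp1, the gene of the scaffold ZO-1 that binds the tail of connexin-43, rose from 98.5 ± 3.53 CPM to 162 ± 19.2 (log2 fold change 0.72, edgeR adjusted p = 2.21e-05). Ezr, the gene of ezrin, which tethers protein kinase A near connexin-43, rose from 37.3 ± 2.51 CPM to 102 ± 7.68 (log2 fold change 1.44, edgeR adjusted p = 1.81e-08). Both had every PTH sample above every vehicle sample. Cnst, the gene of consortin, a receptor that sorts connexins in the trans-Golgi network, fell from 26.4 ± 0.869 CPM to 14.5 ± 0.793 (log2 fold change -0.87, edgeR adjusted p = 1.53e-06). Smaller falls were measured for the actin-binding drebrin gene Dbn1 (log2 fold change -0.41), for the ubiquitin ligase gene Nedd4 (-0.33), for the caveolin gene Cav1 (-0.32), for Ubqln4 (-0.29) and for Ccn3 (-0.28). Among them Ccn3 had overlapping samples, and its adjusted p of 0.0333 lay above 0.05 without PTH sample 2 or 3 or vehicle sample 1, 2 or 3, at 0.0790 under the replicate block and at 0.125 under the length offset, which also took Ubqln4 to 0.0734. The other 3 genes of the list did not pass.

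**Figure D5:**
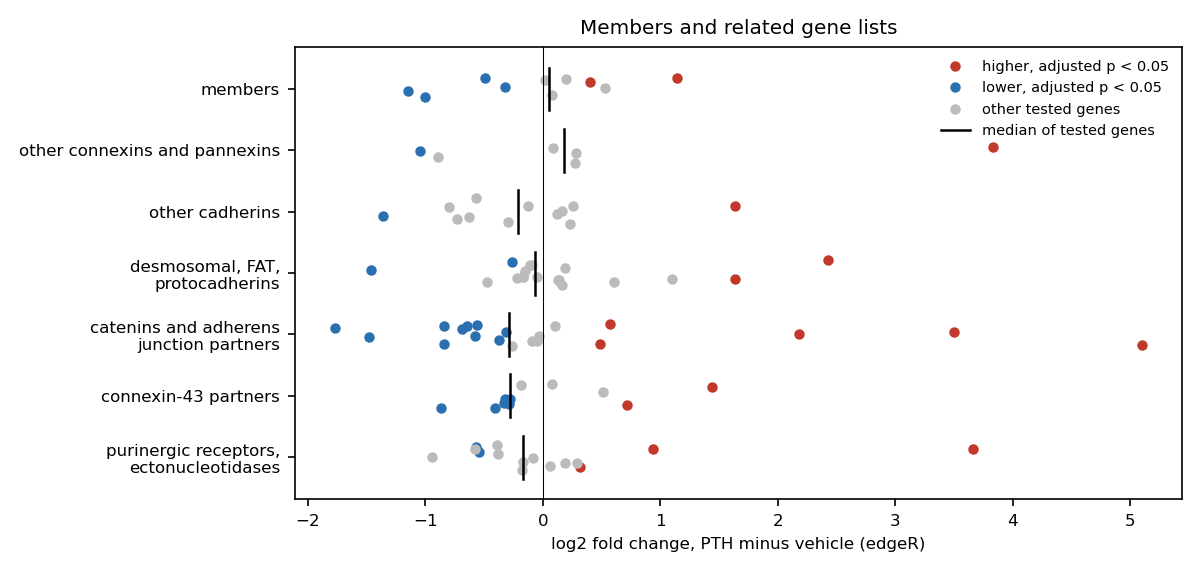
log2 fold change (PTH minus vehicle, edgeR) of each tested gene of the 10 members and of 6 related lists, with red and blue points for genes higher or lower at an adjusted p under 0.05, grey points for the others and a black bar at the median. The median was 0.05 for the members, -0.29 for catenins and adherens junction partners and -0.28 for connexin-43 partners.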

How the data were processed

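RNA was sequenced from 4 PTH-treated and 4 vehicle-treated cultures. The authors enriched poly(A) RNA, used HISAT2 for alignment to GRCm38 and StringTie2 for transcript assembly, and deposited raw counts per gene made by a companion script of the latter. The submitters' processing notes name mm10, HISAT2, StringTie and DESeq2. Tool versions, annotation, strand setting and the read length given to that script are not given in the sources used here. A wrong read length scales all counts alike, and counts estimated from assembled transcripts divide reads between genes that share sequence.

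Here, genes with at least 10 counts in enough samples and 15 in all (edgeR's filterByExpr) were fitted with edgeR 4.0.16 in R 4.3.3 (TMM, quasi-likelihood F-test, two-sided, Benjamini-Hochberg over 16736 genes). Standard errors are the log2 fold change divided by the square root of F. Intervals of 95% use the fit's degrees of freedom. Single ratios were compared by exact permutation over 70 assignments on log2(CPM + 0.1). Lengths and positions are from GENCODE M21, with older symbols matched through RefSeq (16596 tested genes had a length). Shared sequence was searched with blastn 2.17.0 (150 bases, 95% identity), and no exon of another gene overlapped an exon of the 10. Python 3.11.15, pandas 2.3.3, SciPy 1.17.1 and matplotlib 3.10.9 were used.

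The members and lists were chosen with earlier results of these data known. Named were all members, the largest rise and fall of each list, and all changed connexins, cadherins and connexin-43 partners, except 1 changed connexin that is not reported here. Alternatives were DESeq2 1.42.0, its size factors in edgeR, no filter, a replicate block, each sample left out, halved counts, counts summed by symbol, a length offset and a pseudocount of 1. Fits were tested on simulated data.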

Additional observations from a re-analysis of the deposited data

Results flagged for a closer look

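Panx1 in vehicle sample 4, at 12.9 CPM, stood apart from the other 3 vehicle samples, which lay between 11.3 and 11.4 CPM (gap over range 0.925, above Dixon's 95% critical value for 4 samples). Of 20 groups of 4 examined, 1 was past that value, about what chance gives. All PTH samples were above 12.9 CPM.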

How the results depend on the processing

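In 15 alternative fits each, Gja1 (log2 fold change 1.0 to 1.25), Panx1 (0.37 to 0.47), Gjc1 (-1.07 to -0.93), Panx3 (-1.30 to -0.88) and Cdh2 (-0.54 to -0.42) kept their direction and an adjusted p under 0.05, while Cdh11 kept its direction in all 15 (-0.40 to -0.22) and an adjusted p under 0.05 in 8. Cdh4, which did not pass in any fit, changed sign to -0.01 without the filter on low counts and to -0.01 with the replicate block, and ranged from -0.21 to 0.13 without 1 sample. Cdh13 ranged from -0.06 to 0.19 and Cdh15 from -0.07 to 0.53 without 1 sample. The other connexins and pannexins that fell numbered 0 without the filter, with the replicate block and with the length offset, and 0 to 1 without 1 sample. The other cadherins that fell numbered 2 with DESeq2 and 0 to 2 without 1 sample. The purinergic genes that fell numbered 1 with the replicate block and 1 to 3 without 1 sample. The cause of these changes was not tested. With all exons merged, the share of Gja1 was 50.1% with vehicle and 80.6% with PTH.

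The labels number the samples 1 to 4 in each treatment. Deviations from the treatment means correlated between -0.0409 and 0.0274 across genes for samples of the same number, and 0 of 4 PTH samples correlated best with their own number, so the numbers were not taken to pair samples. With the replicate block 7003 genes changed, against 7669. Depth limits Gjb2 and Cdh15 most, with 7 to 52 counts per sample.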

Other observations

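Extracellular ATP that leaves through pannexin and connexin channels is sensed by P2X and P2Y receptors and degraded by ectonucleotidases. Of 19 such genes 15 were tested, 3 rose, 2 fell and 10 did not pass, with a median log2 fold change of -0.17. Over all tested genes 45.8% passed, 23.3% with a rise and 22.5% with a fall. Of the genes that passed, P2ry14, the receptor gene for UDP-glucose, rose most, from 6 to 23 counts per vehicle sample to 141 to 260 counts per PTH sample (log2 fold change 3.66, standard error 0.306, edgeR adjusted p = 1.26e-06). Entpd1 also rose (0.32, edgeR adjusted p = 0.0366), with overlapping samples. Its adjusted p was 0.0515 with DESeq2, 0.108 without the filter and 0.0506 with the replicate block. It was under 0.05 in 3 of 8 fits that left out 1 sample, while P2ry2 and P2ry14 stayed under 0.05 in all 8. Of the genes that passed, P2rx5 fell most, by 0.57 on the log2 scale, with overlapping samples (edgeR adjusted p = 0.0248). Its adjusted p was 0.0625 with the replicate block and was under 0.05 in 4 of 8 fits that left out 1 sample, the exceptions being PTH samples 1 and 3 and vehicle samples 1 and 3. Macrophages express several of these receptors, and 8 macrophage markers summed to 1030 to 1660 CPM with vehicle and 1600 to 2070 CPM with PTH. Lyz2 carried that sum and was the 1 marker that rose (914 ± 187 to 1420 ± 203 CPM, edgeR adjusted p = 0.00312), the other 7 did not pass, and the samples overlapped for all 8. Their part in this list was not tested.

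After the treatment means were removed, the genes whose log2 CPM varied most like Gja1 over the 8 samples, among 13956 genes, were Mbtps1 (r = 0.997), Klhl9 (r = 0.994) and Man2a2 (r = 0.993). For Cdh11 they were Fstl1 (r = 0.995), Wls (r = 0.991) and Angpt1 (r = 0.990), and for Cdh2 Tecr (r = 0.990), Nusap1 (r = 0.986) and Rwdd2a (r = 0.984). The points share libraries, depth and normalization, so these values are descriptions.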
